A study of Mus musculus with 4 samples.

Results

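The 9 genes described here make up the route by which cells show peptides on MHC class I: the heavy chains H2-K1 and H2-D1, the light chain B2m, the peptide transporter genes Tap1 and Tap2, the loading chaperone Tapbp, the immunoproteasome subunits Psmb8 and Psmb9, and the transactivator Nlrc5. They were chosen by gene symbol, and all 9 were found among the 31055 features of the deposited matrix. Single cells came from microdissected lung tumors of 4 female mice, in which lentiviral Cre started the tumors, switched on tdTomato and inverted a gene trap that truncates Lkb1. Of these, 2 mice were Restored, with Rosa26LSL-tdTomato/FLPo-ERT2, in which tamoxifen lets FLPo-ERT2 cut out the trap, and 2 were Non-Restored, with Rosa26LSL-tdTomato and no FLPo-ERT2. All 4 carried the trap alleles Lkb1XTR/XTR on a mixed C57BL/6J:129 background, were taken 16 weeks after intratracheal Lenti-Cre and received tamoxifen over the last 2 weeks. FLPo-ERT2 sits at Rosa26 and is not limited to epithelium, so every cell type of a Restored mouse carries it. The matrix pools the 4 mice with no map from cells to mice. It therefore counts as 1 sample: Restored and Non-Restored tumors could not be compared, no test was possible, and every interval below covers counting error only.

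Almost every nucleated cell displays class I molecules. The proteasome cuts proteins into peptides, TAP1 and TAP2 pump the peptides into the endoplasmic reticulum, tapasin (Tapbp) holds the heavy chain and B2m beside the transporter, and the loaded complex goes to the surface, where CD8 T cells read it. Interferons raise the whole route, in part by replacing the constitutive proteasome subunits with Psmb8, Psmb9 and Psmb10, and NLRC5 drives class I promoters through a composite element that binds RFX, CREB/ATF and NF-Y proteins.

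Of the 9 genes, 7 lie on mouse chromosome 17 (GRCm38, GENCODE), within 1351601 bp: Tapbp (chr17:33915899-33929292, plus strand), H2-K1 (chr17:33996017-34000347, minus), Psmb9 (chr17:34181987-34187764, minus), Tap1 (chr17:34187553-34197225, plus), Psmb8 (chr17:34197721-34201454, plus), Tap2 (chr17:34203527-34216321, plus) and H2-D1 (chr17:35262730-35267499, plus). Psmb9, Tap1, Psmb8 and Tap2 fall within 34335 bp. Psmb9 and Tap1 run in opposite directions from RefSeq starts 226 bases apart, and their wider GENCODE models overlap in exons. B2m (chr2:122147686-122153083, plus) and Nlrc5 (chr8:94434356-94527272, plus) lie elsewhere. The heavy chain genes also share 3′ sequence with other class I genes. Of the 91-base tags in the last 600 bases of their transcripts, 7.54% for H2-D1 (102 of 1353) and 1.84% for H2-K1 (56 of 3037) occur in another gene as well, H2-Q1 and H2-Q10 most often. None did for the other 7 genes.

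Promoter sequence was taken from RefSeq (GRCm38.p6), which matched 7 of the 9 genes; Tap2 and Nlrc5 had no entry. The core letters of a CREB/ATF site, TGACG, and of an NF-Y box, CCAAT (which reads ATTGG on the opposite strand), were searched on both strands in the 250 bases before each start. TGACG followed by ATTGG beginning 25 bases on occurred before H2-K1, H2-D1 and B2m, the genes of the surface complex, and in 0.0913% of all 32851 such windows (30 windows). Only this spacing, the one found before these genes, was counted, so the share is a description and not a test. The cores are shown because the same spacing recurs at 3 separate loci, with both boxes in capitals. They lie at chr17:34000359-34000388 (minus), chr17:35262993-35263022 (plus; inside an exon of another annotated H2-D1 transcript) and chr2:122147609-122147638 (plus).
H2-K1: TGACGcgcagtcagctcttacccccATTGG
H2-D1: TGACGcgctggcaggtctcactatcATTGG
B2m: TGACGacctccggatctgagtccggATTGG

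The wider stretches before H2-K1 (chr17:34000349-34000468, minus) and B2m (chr2:122147538-122147648, plus) are shown because the exact letters matched upstream of that core differ. H2-K1 holds a palindromic NF-kB motif, and B2m holds the letters of an interferon-stimulated response element, GAAA repeated after a gap of 2 bases. These are the first capitals in each line, and the core boxes are the others.
H2-K1: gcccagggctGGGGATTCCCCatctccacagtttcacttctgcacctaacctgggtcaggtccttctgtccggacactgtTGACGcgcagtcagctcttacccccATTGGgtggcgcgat
B2m: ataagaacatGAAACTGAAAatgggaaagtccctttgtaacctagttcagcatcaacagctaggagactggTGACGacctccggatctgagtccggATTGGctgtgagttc

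The NF-kB palindrome occurred in 0.0304% of all windows (10), among them those of H2-K1 and H2-D1, which were identical at 119 of 130 aligned bases (91.5%) in this region. The exact letters searched for the interferon-stimulated response element occurred in 2.98% of windows and, among the 7 genes, before B2m. Forms of the element with other letters were not searched. The search therefore cannot say whether H2-K1, H2-D1 or the other genes lack such an element. CCAAT occurred in 33.8% of windows and TGACG in 17.8%, so the matches before Tap1 and Psmb9, which hold both without that spacing, and before Tapbp (CCAAT) are common ones. The windows of Tap1 and Psmb9 overlap, and their matches are the same bases read from opposite strands. These are matches of letters and not measured binding.

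After filtering, 19488 of 20351 cells were kept. Marker genes split them into 947 epithelial-like cells (3753034 UMIs, molecules counted once each), 16492 immune cells, 1866 endothelial-like cells, 161 stromal-like cells and 22 ciliated or club-like cells. The members were left out of the genes that clustered the cells. Median depth was 3680 UMIs per epithelial-like cell, 1885.5 per immune cell, 1892.5 per endothelial-like cell and 2931 per stromal-like cell. Levels are therefore given as CPM, UMIs of a gene per 1000000 UMIs of its cell group. TdTomato, the Cre reporter, stood at 4381 to 6025 CPM in the epithelial sub-clusters, at 99.9 CPM in stromal-like cells and from 52.5 CPM (mature dendritic-like) to 2675 CPM (alveolar macrophage-like) in immune clusters. Inside the epithelium, 405 cells were ATII-like (Sftpc 118398 CPM, Hopx 31.0) and 291 ATI-like (Hopx 948 CPM), although the latter kept Sftpc at 37693 CPM. A sub-cluster of 202 cells led by Retnla and Chia1 and another of 49 cells led by Apoe and S100a8 stayed unnamed. The 202 cells held Sftpc at 122770 CPM and Hopx at 55.6, near the ATII-like values.

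The epithelium carried less class I RNA than immune or endothelial cells. The 9 genes summed to 1584 CPM (95% Poisson interval 1544 to 1625) in epithelial-like cells, 4504 CPM (4484 to 4523) in immune cells, 4437 CPM (4372 to 4504) in endothelial-like cells and 1981 CPM (1857 to 2111) in stromal-like cells. Immune cells were 2.84-fold and endothelial-like cells 2.80-fold above the epithelium, and stromal-like cells 1.25-fold. In UMIs per cell rather than CPM, the epithelium held 6.28, immune cells 12.3, endothelial-like cells 9.34 and stromal-like cells 5.91, so the epithelium lay below stromal-like cells in CPM but not per cell. The 22 ciliated or club-like cells held 6.05 UMIs per cell. With TMM factors, which rescale the group totals, the log2 ratio over stromal-like cells was -0.05 (-0.15 to 0.05) in place of -0.32 (-0.42 to -0.22).

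**Figure D1:**
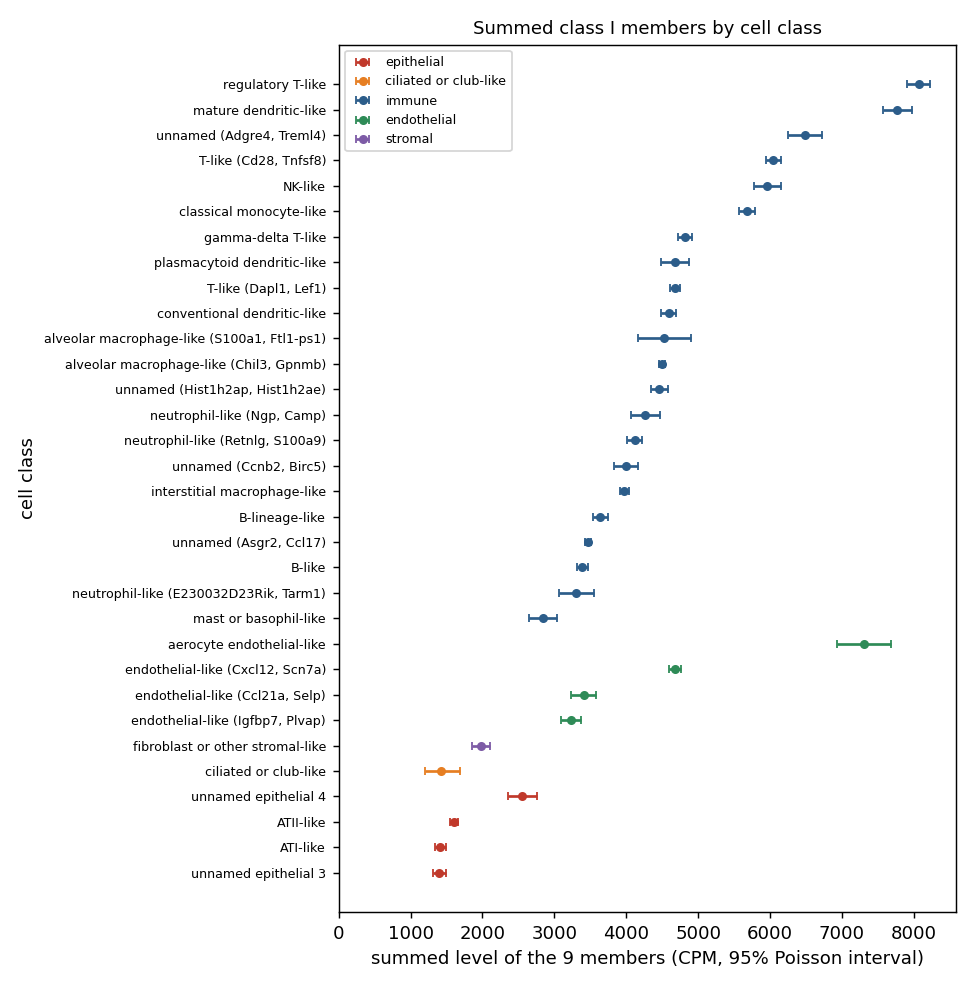
Summed CPM of the 9 genes (x axis) in each of 32 cell classes (y axis), colored by compartment, with 95% Poisson intervals. All 22 immune clusters, all 4 endothelial clusters and the stromal cluster lie above both the ATII-like (1607 CPM) and the ATI-like class (1410 CPM).

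The heavy chains were 1.84-fold (H2-K1) and 2.27-fold (H2-D1) higher in immune cells than in the epithelium. H2-K1, a classical heavy chain, stood at 570 CPM in epithelial-like cells, 1049 in immune, 1039 in endothelial-like and 377 in stromal-like cells. The log2 ratio of epithelial-like over immune was -0.88 (exact conditional 95% interval -0.94 to -0.82). H2-D1, the other classical heavy chain measured, stood at 569, 1290, 1373 and 470 CPM in the same order, with a log2 ratio to immune cells of -1.18 (-1.24 to -1.12). Both heavy chains were thus below immune and endothelial levels but above the stromal level, by log2 ratios of 0.60 (0.38 to 0.83) for H2-K1 and 0.28 (0.08 to 0.48) for H2-D1.

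B2m, the invariant light chain, showed a wider gap. It stood at 255 CPM in epithelial-like, 1577 in immune, 1424 in endothelial-like and 855 in stromal-like cells. Immune cells were 6.18-fold higher (log2 -2.63, -2.72 to -2.54), endothelial-like cells 5.59-fold and stromal-like cells 3.35-fold. The epithelial interval ended at 272 CPM, apart from those of all 3 other groups.

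The transporter genes were scarce everywhere. Tap1 stood at 14.4 CPM in epithelial-like cells (54 UMIs), 49.2 in immune, 42.8 in endothelial-like and 20.8 in stromal-like cells, a log2 ratio to immune cells of -1.77 (-2.19 to -1.38). Tap2 stood at 18.9 CPM (71 UMIs), 42.7, 79.2 and 33.3, with log2 ratios of -1.17 (-1.54 to -0.83) to immune and -2.06 (-2.46 to -1.69) to endothelial-like cells. Against stromal-like cells, where Tap1 had 10 UMIs and Tap2 had 16, both intervals included 0. Tapbp, which bridges transporter and heavy chain, stood at 81.0, 125, 152 and 112 CPM, and at a log2 ratio of -0.62 (-0.79 to -0.46) it was the member closest to the immune level.

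The immunoproteasome subunits lay at the other end with B2m. Psmb8, the chymotrypsin-like subunit, stood at 61.3 CPM in epithelial-like, 283 in immune, 213 in endothelial-like and 77.0 in stromal-like cells (log2 to immune -2.21, -2.40 to -2.02). Psmb9 stood at 12.5 CPM (47 UMIs), 79.1, 108 and 29.1, and was 6.31-fold higher in immune and 8.64-fold higher in endothelial-like cells. For Nlrc5, 4 UMIs were counted in the whole epithelium (1.07 CPM, 0.290 to 2.73), against 405 in immune cells (9.01 CPM), 22 in endothelial-like cells (5.60 CPM) and 3 in stromal-like cells (6.24 CPM). The log2 ratio to immune cells of -3.08 had an interval of -4.96 to -1.71, and at these levels Nlrc5 stayed under the 10 CPM needed to be counted below.

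**Figure D2:**
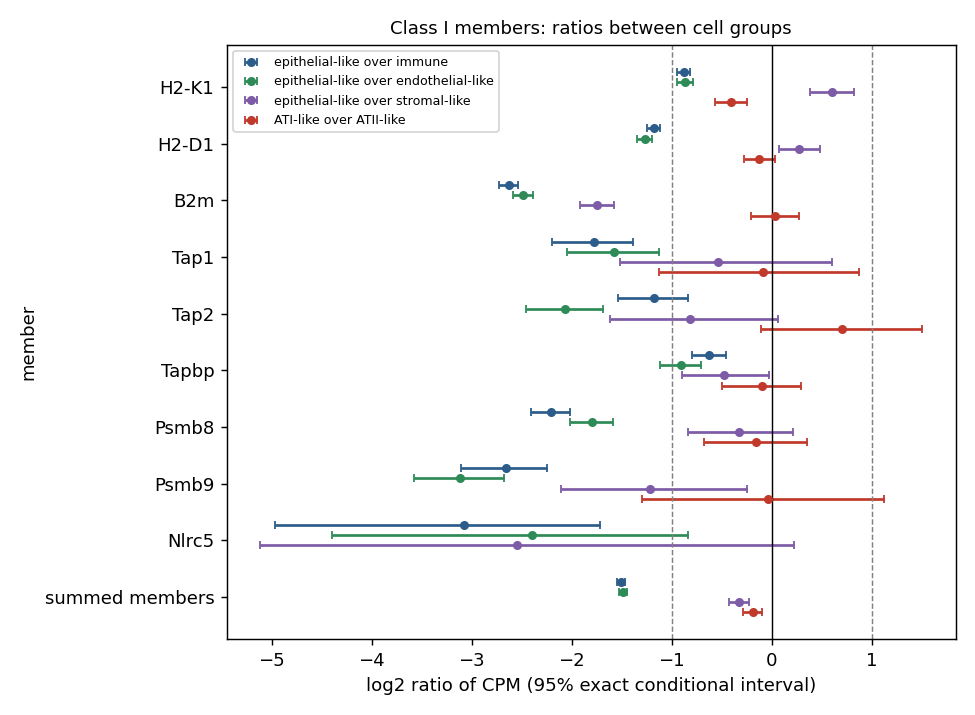
Log2 ratio of CPM (x axis) for each gene and their sum (y axis) in 4 comparisons, with exact conditional 95% intervals; the dashed lines mark a fold of 2. B2m, Psmb9 and Nlrc5 lie farthest left against immune and endothelial-like cells, and the ATI-like over ATII-like ratios lie around 0. ATI-like cells had no Nlrc5 UMI, so that ratio is not drawn.

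Of the 8 genes at 10 CPM or more in either group, 6 were at least 2-fold lower in epithelial-like than in immune cells (H2-D1, B2m, Tap1, Tap2, Psmb8 and Psmb9), where 21.9% of all 9023 genes compared were. Their median log2 ratio was -1.48, and that of all genes was -0.10. Against endothelial-like cells the same 6 of 8 were lower, where 26.2% of all genes were, with medians of -1.68 and -0.36. Against stromal-like cells 2 of 8 were lower (B2m and Psmb9), where 26.1% of all genes were, a share close to the background. With totals taken without the genes above 1% of any group's UMIs, surfactant genes among them, the count against immune cells was 4 (B2m, Tap1, Psmb8 and Psmb9). The share of all genes past the fold was not computed with those totals. TMM factors shifted every log2 ratio by 0.29 over endothelial-like and by 0.27 over stromal-like cells, and the ratio of each member keeps its place among all genes under such a shift.

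RNA of immune marker genes was also present among the epithelial-like cells. The 7 genes of the immune list (Ptprc, Coro1a, Laptm5, Tyrobp, Fcer1g, Cd3e and Cd79a) summed to 5477 CPM in immune cells and 157 CPM in epithelial-like cells, with 12.3 in ATII-like and 48.9 in ATI-like cells but 1901 in the 49-cell sub-cluster. That sub-cluster also had the highest summed level of the 9 genes in the epithelium, 2551 CPM, and the highest B2m, 646 CPM. In the 844 epithelial-like cells without a UMI of the immune list, the 9 genes summed to 1507 CPM (1465 to 1550) and B2m to 229 CPM (212 to 246). The gap to immune cells was therefore wider in those cells. Within each state the intervals of the sum overlapped. It was 1831 CPM (1581 to 2109) in the 20 ATII-like cells with a UMI of the immune list and 1593 CPM (1535 to 1653) in the 385 without. In ATI-like cells it was 1366 CPM (1125 to 1644) in 18 and 1415 CPM (1337 to 1495) in 273. For B2m and H2-D1 the intervals lay apart in ATII-like cells. B2m was 353 CPM (248 to 486) with such a UMI and 224 (202 to 247) without, and H2-D1 was 744 (588 to 928) and 550 (516 to 585). The intervals of H2-K1 overlapped there. In ATI-like cells B2m was 183 CPM (102 to 302) with such a UMI and 242 (211 to 277) without. The part of immune RNA in the members' levels was not tested further.

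ATII-like and ATI-like cells lay close to each other. The sum was 1607 CPM (1550 to 1665) in ATII-like and 1410 CPM (1336 to 1488) in ATI-like cells, a log2 ratio of ATI-like over ATII-like of -0.19 (-0.28 to -0.09). None of the 8 genes compared differed 2-fold, where 18.3% of all 8192 genes did. With only 8 genes, that count is not far from the background share. The median of the 8 was -0.09, beside 0.14 for all genes. H2-K1 was the gene whose interval lay apart from 0, at 625 CPM in ATII-like and 472 in ATI-like cells (log2 -0.40, -0.56 to -0.25). H2-D1 was 561 and 515 CPM, B2m 231 and 237, Tapbp 90.2 and 84.3, and Psmb8 55.5 and 49.9. The remaining genes rested on 31 UMIs or fewer in each state. Tap2 showed the widest ratio among them, 16.6 and 27.0 CPM (log2 0.71, -0.10 to 1.51). For Nlrc5, 2 UMIs were found in ATII-like cells and 0 in ATI-like cells, which allows up to 3.12 CPM. The unnamed 202-cell sub-cluster, with Sftpc as high as in ATII-like cells, had H2-K1 at 474 CPM (423 to 529). Its sum was 1402 CPM (1313 to 1495). Both values lay near the ATI-like ones, so the higher ATII-like levels were not shared by all cells high in Sftpc. The order of the summed level also depended on the cut-offs for cells: without the upper cut-offs the log2 ratio of ATI-like over ATII-like was 0.04 (-0.03 to 0.12).

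Across 32 finer classes the sum ranged from 1402 CPM in the epithelial sub-cluster led by Retnla to 8068 CPM in regulatory T-like cells. Mature dendritic-like cells (7774 CPM) and aerocyte endothelial-like cells (7302 CPM) followed. The basophil or mast-like class was the lowest immune one, at 2835 CPM, still above both epithelial states with intervals apart. In the order of the sum, 23 of 31 neighbouring classes had intervals that overlapped, so ranks next to each other mostly could not be told apart.

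**Figure D3:**
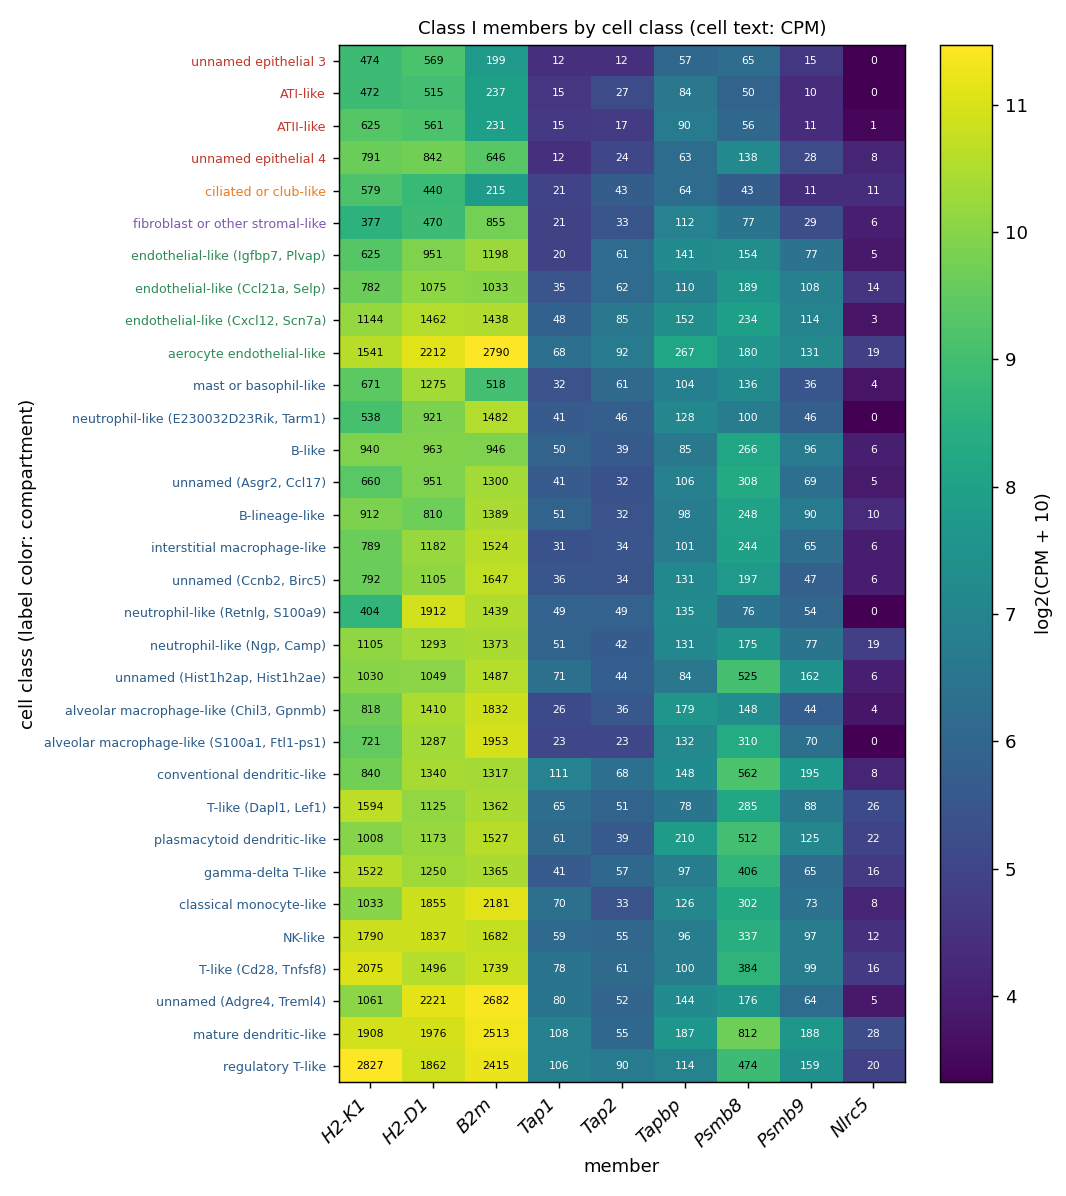
CPM of each gene (columns, printed in the cells; color is log2 of CPM plus 10) in 32 cell classes (rows), labels colored by compartment and ordered by summed level within each. The B2m column runs from 199 CPM in an epithelial sub-cluster to 2790 CPM in aerocyte endothelial-like cells, and the Nlrc5 column from 0 to 27.6 CPM.

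The genes did not peak in the same class. H2-K1 was highest in regulatory T-like cells (2827 CPM), followed by T-like cells marked by Cd28 (2075 CPM). H2-D1 was highest in an unnamed immune cluster led by Adgre4 and Treml4 (2221 CPM), beside aerocyte endothelial-like cells (2212 CPM), whose intervals overlapped. Aerocyte endothelial-like cells, the capillary cells of gas exchange, had the highest B2m (2790 CPM), Tapbp (267 CPM) and Tap2 (92.4 CPM). Dendritic cells, which present antigen to T cells, held the top of the remaining genes. Conventional dendritic-like cells were highest for Tap1 (111 CPM) and Psmb9 (195 CPM), and mature dendritic-like cells for Psmb8 (812 CPM) and Nlrc5 (27.6 CPM). Intervals of neighbouring classes overlapped for every neighbouring pair of Tap1, Tap2, Psmb9 and Nlrc5, so their order is loose.

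The place of the epithelium in these orders differed by gene. For H2-D1, B2m and Psmb9, all 22 immune clusters lay above ATII-like cells with intervals apart. For H2-K1, 20 of 22 lay above, 17 with intervals apart, and 1 lay below with intervals apart: neutrophil-like cells led by Retnlg and S100a9, at 404 CPM against 625. Those neutrophil-like cells had H2-D1 at 1912 CPM, so their low H2-K1 was not shared by the other heavy chain. Tapbp overlapped most: 19 of 22 immune clusters lay above ATII-like cells, but 7 with intervals apart.

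The ratio of B2m to heavy chain UMIs within a class does not depend on its total. ATII-like cells held 0.195 B2m UMIs per UMI of H2-K1 plus H2-D1 (0.175 to 0.216) and ATI-like cells 0.240 (0.207 to 0.278). Immune cells held 0.674, endothelial-like cells 0.590 and stromal-like cells 1.01. Immune clusters ran from 0.266 in basophil or mast-like cells (0.220 to 0.320) to 1.02 in a neutrophil-like cluster led by E230032D23Rik and Tarm1, so every immune cluster had more B2m per heavy chain UMI than ATII-like cells, while the interval of basophil or mast-like cells overlapped that of ATI-like cells. The ciliated or club-like cells, also epithelium, were at 0.211 from 20 B2m UMIs. H2-K1 per UMI of H2-D1 varied more among immune clusters than between the epithelial states: 0.211 in Retnlg neutrophil-like cells and 1.52 in regulatory T-like cells, with 1.12 in ATII-like and 0.917 in ATI-like cells. The 3′ sequence shared with other class I genes applies to the heavy chain counts in both ratios.

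The immunoproteasome share, another ratio within a class, was lower in ATII-like and ATI-like cells than in every immune, endothelial and stromal cluster. Each of Psmb8, Psmb9 and Psmb10 takes the place of a constitutive subunit (Psmb5, Psmb6 and Psmb7), and their part of the UMIs of all 6 was 19.1% (exact binomial 95% interval 17.4 to 20.9) in epithelial-like cells, 56.8% (56.2 to 57.3) in immune, 53.7% in endothelial-like and 30.5% (25.2 to 36.2) in stromal-like cells. Psmb8 made up 27.3% of its pair in the epithelium and 68.9% in immune cells, Psmb9 6.13% and 33.2%, and Psmb10 27.3% and 60.9%. ATII-like (18.0%) and ATI-like cells (16.2%) had overlapping intervals. The constitutive subunits were not low in the epithelium: the log2 ratios of epithelial-like over immune were 0.35 for Psmb5, 0.27 for Psmb6 and 0.30 for Psmb7. Immune clusters ran from 30.2% in the Tarm1 neutrophil-like cluster (22.7 to 38.6) to 74.5% in mature dendritic-like cells, and the 49-cell epithelial sub-cluster with immune RNA was at 37.9%. The ciliated or club-like cells, also epithelium, were at 13.6% (7.25 to 22.6). A low share was therefore not particular to ATII-like and ATI-like cells.

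**Figure D4:**
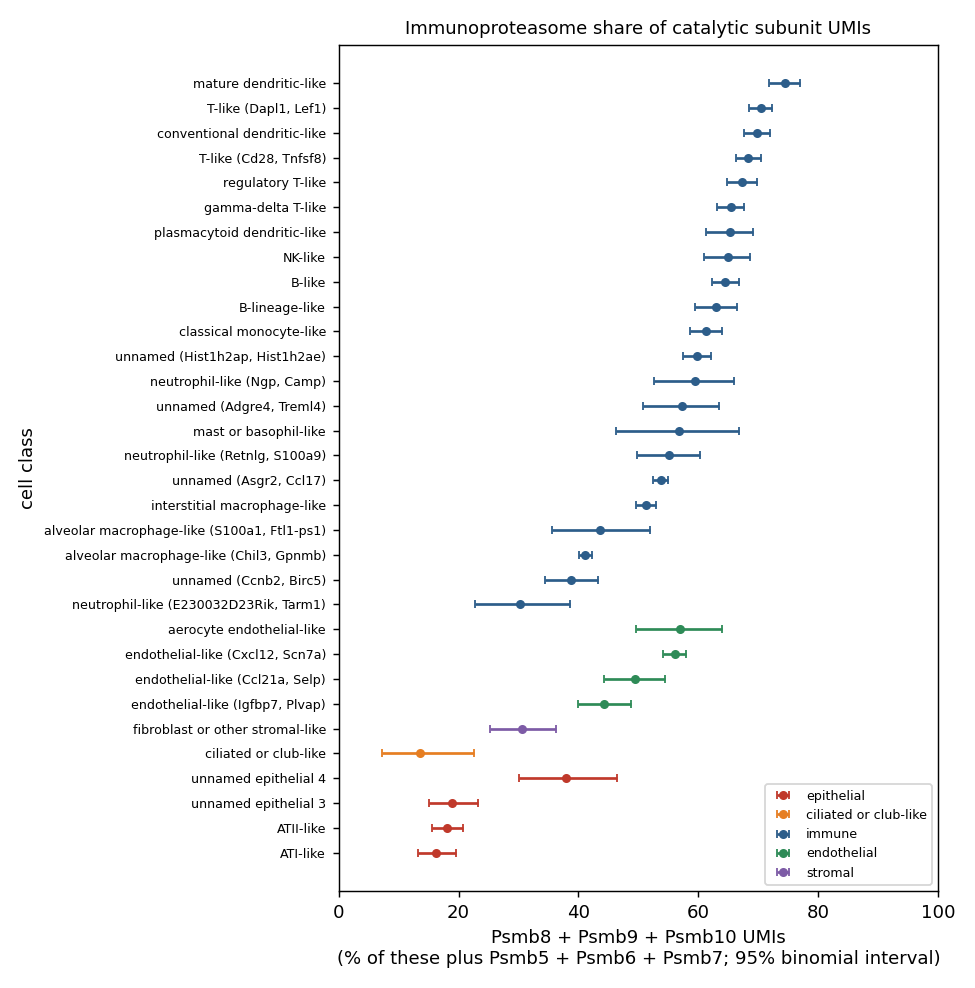
Share of Psmb8, Psmb9 and Psmb10 among UMIs of these and Psmb5, Psmb6 and Psmb7 (x axis, percent) in each class (y axis), with exact binomial 95% intervals. ATII-like, ATI-like and the larger unnamed epithelial sub-cluster lie between 16.2% and 18.9%, and immune clusters between 30.2% and 74.5%.

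Per cell at equal depth, member UMIs were also fewer in the epithelium. With every cell thinned to 1000 UMIs (896 of 947 epithelial-like and 14111 of 16492 immune cells were deep enough), a UMI of any member was found in 69.6% of epithelial-like cells (exact 95% interval 66.5 to 72.6), 97.4% of immune, 96.3% of endothelial-like and 76.0% of stromal-like cells. Before thinning, the epithelial share was 91.8%. The median was 1 member UMI per epithelial-like cell and 4 per immune cell, with a variance over mean of 1.90 and 1.94. B2m was found in 20.1% of thinned epithelial-like cells, 73.4% of immune and 60.0% of stromal-like cells. H2-K1 or H2-D1 was found in 58.8% of epithelial-like cells. Nlrc5 was found in 0 of 896 epithelial-like cells, which allows a share of up to 0.335% of cells with a UMI. Since almost every cell type expresses class I, no class here gives the share that free RNA alone would produce.

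**Figure D5:**
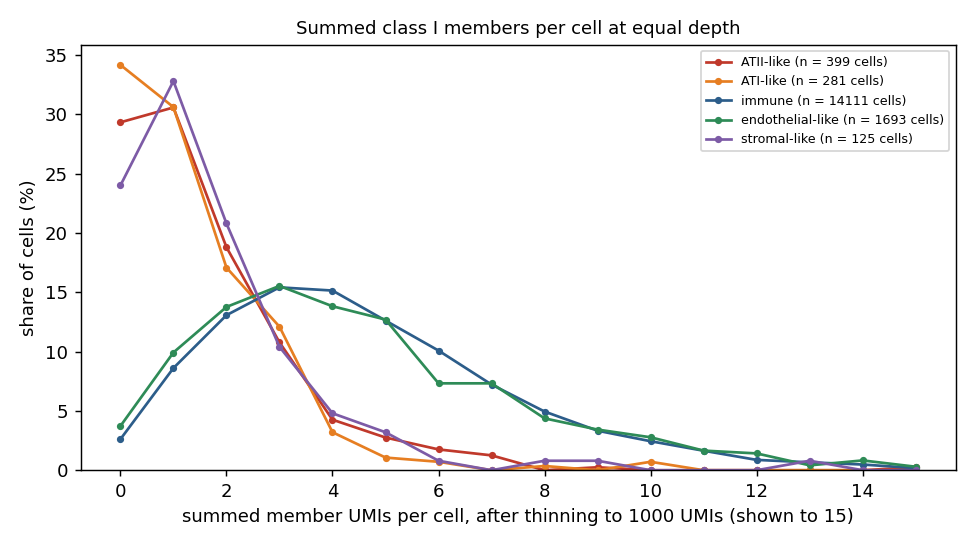
Share of cells (y axis, percent) by summed UMIs of the 9 genes per cell after thinning to 1000 UMIs (x axis, shown to 15). ATII-like, ATI-like and stromal-like cells pile up at 0 to 2 UMIs, and immune and endothelial-like cells peak at 3.

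Other genes of the route were counted on lists chosen by function. None of the 14 core proteasome genes was 2-fold lower in epithelial-like than in immune cells (median log2 -0.03). Of 9 peptide processing and loading genes compared, 2 were lower, a share close to the 21.9% of all genes, namely Psmb10 (-1.75) and the aminopeptidase Lnpep (-1.34), while the chaperones Calr (-0.56), Canx (-0.27) and Pdia3 (0.00) were not. The median of that list was -0.56, beside -0.10 for all genes.

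Class Ib genes, which present to innate-like or NK cells or carry other cargo, went with the members. Of 12 compared, 11 were lower in epithelial-like than in immune cells (median -2.52), where 21.9% of all genes were, among them H2-T23 (-1.43), H2-Q7 (-3.36), H2-M3 (-2.49) and Fcgrt (-3.23), the neonatal Fc receptor. H2-Q2 was the one that was higher, with 58 UMIs in epithelial-like and 21 in immune cells, as were 19.1% of all genes. H2-Q genes share 3′ tags with H2-D1 and H2-K1, and how reads with such tags were counted was not examined.

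Regulators of class I were mixed. Of 15 compared, 6 were lower than in immune cells, where 21.9% of all genes were, among them Stat2 (-1.67), Irf1 (-1.31), Irf8 (-5.51), Nfkb1 (-1.92) and Ciita (-1.74), the class II transactivator. Rfx5 (0.40, -0.22 to 0.97), Nfyb (0.38) and Nfyc (0.12), whose products bind the composite promoter element, were not. Against the same background, 6 of 7 interferon receptor and kinase genes were lower, including Ifngr1 (-3.08), Ifnar1 (-2.11), Jak1 (-2.10) and Jak2 (-2.06). Of 5 interferon response genes compared 3 were lower, with Isg15 at -2.15 and Bst2 at -2.10. Irf8 and Bst2 were also on dendritic marker lists used to name immune clusters, so their gaps may be partly built into the grouping. Against endothelial-like cells all 8 interferon response genes were lower, where 26.2% of all genes were, and against stromal-like cells 4 of 5 were, where 26.1% of all genes were.

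Class II genes, which ATII cells are known to express, moved differently from class I. All 4 were lower than in immune cells, where 21.9% of all genes were (H2-Ab1 -2.68, H2-Aa -2.26, H2-Eb1 -3.02, Cd74 -1.64). Against endothelial-like cells 2 of 4 were higher in the epithelium, H2-Aa (1.21) and Cd74 (1.67), and against stromal-like cells all 4 were higher, where 14.5% and 14.7% of all genes were higher in the epithelium. Between the epithelial states, H2-Ab1 and H2-Aa had log2 ratios of ATI-like over ATII-like of -1.14 each, where 8.06% of all genes were as low and no class I member differed 2-fold.

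Across the 26 named classes, Psmb8 and Psmb9 varied most alike (Pearson r of log2 CPM plus 10, 0.88), followed by Tap1 with Psmb9 (0.84), B2m with Psmb9 (0.83) and H2-D1 with B2m (0.82). H2-K1 with Tapbp was lowest, at 0.16. Some of these rested on the epithelium: over the 23 classes without it, B2m with Psmb9 was 0.51 and H2-D1 with B2m 0.64, while Psmb8 with Psmb9 was 0.79. Among 7598 other genes, those most like the mean of the 9 were Fyn (0.78), Herc6 (0.76), Il2rg (0.76), Jpt1 (0.75) and Phf11b (0.75), with Twf2, Appl1, Fnbp1, Clec2d and Mndal between 0.71 and 0.74. These values cover all 26 classes and were not computed without the epithelium, so how far they rest on it was not tested. Fyn, a Src-family kinase, was 5.34 CPM in ATII-like cells and 384 CPM at its highest, in plasmacytoid dendritic-like cells. These correlations describe classes that share their libraries and mice and differ in depth.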

How the data were processed

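Total viable cells from microdissected tumors were sequenced with 10x 3′ chemistry. The authors processed reads with Cell Ranger against mm10 and deposited 1 matrix of UMI counts, with no normalization, for 20351 cells. Per-sample columns left unused: 0. No other file was used here, and barcodes shared between libraries could not be counted. Cells with at least 200 genes and below the 98th percentile of genes (2713) and of mitochondrial percent (13.4) were kept; the study does not state its percentile. Scrublet (scanpy 1.11.5) called 181 cells, 0.892% of 20299, and these stayed in. Seurat 5.3.0 clustered cells on 2000 variable genes without the members and pathway lists, 25 dimensions, resolution 0.1 for compartments and 1 for finer classes; epithelial cells were clustered again (15 dimensions, resolution 0.3). Classes were named from at least 3 raised markers. Raw UMIs were summed per class. A gene was compared at 10 CPM or more in either group and called past a fold of 2; 3 counts set the limit at 0. TMM factors came from edgeR 4.0.16. Intervals are at 95% and computed with scipy 1.17.1; with 1 sample there is no test. Genes named were the 9 members, the lists, and the 10 genes most like their mean at 50 CPM or more in a class. Members, lists and markers were chosen with earlier results of these data known, and naming rules were written after clusters were seen. Some items, among them an allele shared by all 4 mice, are not reported here. Scripts were tested on simulated data. With 7936 genes tested over immune cells, 1 simulated gene without a change passed the fold. With 8466 tested over stromal-like cells, 556 did, so counts and shares past the fold over stromal-like cells include calls from counting error. Alternatives are given in the closing section.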

Additional observations from a re-analysis of the deposited data

How the results depend on the processing

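No paired analysis was possible because cells could not be assigned to mice. The log2 ratio of the summed genes, epithelial-like over immune, was -1.43 without upper cut-offs, -1.59 with per-cell marker gates, -1.58 without epithelial cells that held an immune-list UMI, -1.57 with TMM factors, -1.44 with size factors, -1.29 with totals without genes above 1%, -1.59 with immune types weighted equally and -1.65 as a mean over cells. Over endothelial-like cells it was, under the same settings except equal weighting, -1.30, -1.56, -1.56, -1.20, -1.14, -1.26 and -1.65. Without upper cut-offs that compartment held 2134 cells in place of 1866. Mgp, which leads the stromal-like cells in the main setting, was among its leading genes, so that value may not cover endothelial-like cells alone. Over stromal-like cells it was -0.17 with at least 500 genes per cell, -0.43 with 95th percentile cut-offs, -0.16 with 15 dimensions, -0.18 without depth regression, -0.22 with gates, -0.0478 with TMM, -0.064 with size factors, -0.17 without genes above 1% and -0.74 as a mean over cells; no stromal compartment formed without upper cut-offs. ATI-like over ATII-like was 0.0436 without upper cut-offs, which reversed it, and -0.29, -0.36, -0.34, -0.29 and -0.47 without depth regression, with TMM, with size factors, without genes above 1% and at epithelial resolution 0.5, where 1 gene (Tap2) differed 2-fold. The causes were not tested, except that a rescaling of totals shifts every gene alike: TMM by -0.17 and size factors by -0.15 for ATI-like over ATII-like, size factors by 0.35 over endothelial-like and 0.26 over stromal-like cells, and totals without genes above 1% by 0.22, 0.23 and 0.15 over immune, endothelial-like and stromal-like cells. Members at least 2-fold lower than in immune cells numbered 4 to 8. The share of all genes past that fold was computed in the main setting only. These counts and the 1 gene at epithelial resolution 0.5 therefore have no background beside them. The share of epithelial-like cells with a member UMI was 46.7% at 500 UMIs, 88.7% at 2000 and 91.8% unthinned. Depth limits Nlrc5, Tap1, Tap2 and Psmb9 most, with 4 to 71 epithelial UMIs each.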
